A study of Mus musculus with 12 samples.

Results

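The miR-199 and miR-214 set, whose best known source is the Dnm3os gene, comprises the mature miRNAs whose array name is miR-199a, miR-199b or miR-214 with any arm or star suffix. The array carried 5 of them among its 611 mouse miRNAs: mmu-miR-199a-3p, mmu-miR-199a-5p, mmu-miR-214, mmu-miR-199b* and mmu-miR-214*. The first 4 were detected on all 12 arrays and entered the test of 176 mouse miRNAs, while mmu-miR-214* was detected on 0 of 12 arrays and was not tested.

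Mouse embryonic fibroblasts of C57BL/6 background were profiled on 1-colour Agilent miRNA arrays, 2 arrays for each of 6 groups. Cells lacking ATF6b (labelled ATF6bKO, here KO) were untreated or received tunicamycin at 2 ug/mL for 12 h or 24 h, and cells labelled ATF6bWT (here WT) were handled in the same way. The comparisons address which miRNAs respond to tunicamycin, and which responses depend on ATF6b. The 2 arrays of a group stand for independent experiments per the design text, whereas the labels do not say how many embryos or lines stand behind each genotype, so KO against WT may also be 1 line against another.

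Tunicamycin blocks N-linked glycosylation, which leaves misfolded glycoproteins in the endoplasmic reticulum (ER) and stresses it. ATF6b and its relative ATF6 are ER membrane proteins that are cut under this stress, and the freed part acts as a transcription factor. The miR-199a and miR-214 hairpins are transcribed together from Dnm3os, a long non-coding RNA made from the strand opposite to the gene of dynamin 3 and abundant in mesenchymal cells, where the transcription factor Twist1 is known to drive it. In other cells miR-199a-5p has been reported to repress ATF6, and members of the set have been reported to respond to ER stress.

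The mature sequences show how the members relate, and are taken from RefSeq (GRCm38.p6) with the seed, bases 2 to 8, in capitals. The array name mmu-miR-214 stands for the 3p arm of its hairpin and mmu-miR-214* for the 5p arm.
miR-199a-5p: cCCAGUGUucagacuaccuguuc
miR-199a-3p: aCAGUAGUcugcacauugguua
miR-199b-3p: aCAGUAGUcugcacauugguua
miR-214-3p: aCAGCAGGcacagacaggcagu
miR-214-5p: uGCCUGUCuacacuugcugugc
The 3p arms of miR-199a and miR-199b are identical, so the probes for mmu-miR-199a-3p cannot tell these 2 sources apart. The seeds of the 4 different sequences are distinct from each other. Among the mature mouse miRNAs of the table, only miR-761 shares a seed with a member from another family, that of miR-214-3p, and mmu-miR-761 was detected on 0 of 12 arrays.

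The name mmu-miR-199b* denotes the 5p arm of the Mir199b hairpin. The stretch of that hairpin at chr2:32318485-32318507 (plus strand) lines up with miR-199a-5p over 23 bases with 1 difference, C10U, counted from the 5′ end of miR-199a-5p and shown in capitals.
miR-199a-5p: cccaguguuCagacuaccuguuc
Mir199b hairpin stretch: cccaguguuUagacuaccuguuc
The difference lies outside the seed. Whether the probes of mmu-miR-199b* and mmu-miR-199a-5p bind each other's miRNA was not tested.

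Mir199a-2 (chr1:162217814-162217923) and Mir214 (chr1:162223368-162223477) both lie on the plus strand within Dnm3os, and Dnm3os lies within the span of Dnm3. Mir199a-2 begins 191 bases after the Dnm3os start and Mir214 begins 5745 bases after it, with 5444 bases between the hairpins. Mir199a-1 (chr9:21496495-21496564, minus strand) gives the same mature miR-199a-5p and miR-199a-3p from within the span of Dnm2, and Mir199b (chr2:32318460-32318569, plus strand) lies within that of Dnm1. The arrays measure the mature RNA, so the signal of mmu-miR-199a-5p and mmu-miR-199a-3p cannot be assigned to 1 of these loci.

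**Figure D1:**
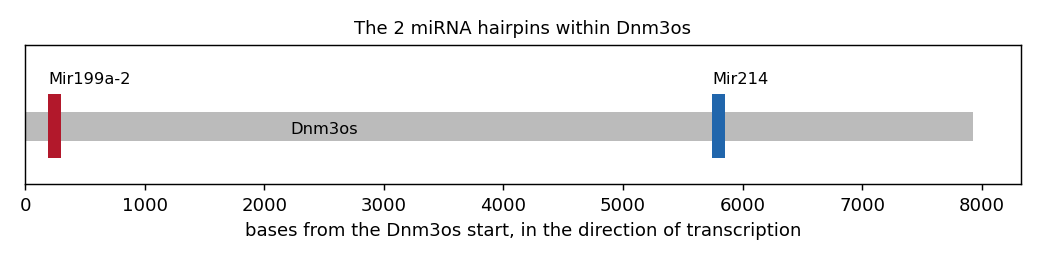
Positions of the Mir199a-2 and Mir214 hairpins (coloured blocks, to scale) along Dnm3os (grey bar), in bases from its start. The hairpins begin 191 and 5745 bases after the start of the 7928-base gene span.

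The promoter of Dnm3os is shown because Mir199a-2 and Mir214 share it. It covers 250 bases before to 50 bases after the start, chr1:162217373-162217672 on the plus strand, with motif matches in capitals.
Dnm3os promoter: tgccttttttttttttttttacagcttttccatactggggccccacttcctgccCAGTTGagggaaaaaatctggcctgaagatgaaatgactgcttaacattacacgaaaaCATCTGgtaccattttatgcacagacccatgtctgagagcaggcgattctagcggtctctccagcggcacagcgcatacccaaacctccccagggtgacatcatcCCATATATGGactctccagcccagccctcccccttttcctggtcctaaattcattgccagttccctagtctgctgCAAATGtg
Both strands were searched. The E-box, CANNTG, the kind of site that Twist1 binds, occurred 3 times, and 72.3% of 32851 promoters of this length hold at least 1. A CArG box, the site of serum response factor, occurred 1 time, 33 bases before the start, and 1.63% of promoters hold one. Letters of the ER stress elements were found 0 times: ERSE (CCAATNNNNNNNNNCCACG) is held by 0.119% of promoters, ERSE-II (ATTGGNCCACG) by 0.0365% and the core of the unfolded protein response element (TGACGTG) by 2.01%. ERSE and ERSE-II share the letters CCACG. No match says only that these letters are not in this window.

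Signal and detection over the whole experiment bear on every value below. The 75th percentile of intensity was 208 to 257 on 3 arrays, the second replicates of KO at 12 h, KO at 24 h and WT at 24 h, and 412 to 623 on the others. Each slide held either treated or untreated cells, and each slide row held either KO or WT cells. Treatment therefore cannot be told apart from slide, nor genotype from row. Of the fibroblast and mesenchymal list 16 to 21 of 23 miRNAs were detected per array, while 0 markers of blood, endothelium or liver were detected. Of the epithelial list 4 to 7 of 11 miRNAs were detected on treated KO arrays, against 0 on untreated KO arrays and 1 to 2 on WT arrays. The summed scaled level of that list was 2.79 to 4.04 on treated KO arrays, 0.0240 to 0.0396 on untreated KO arrays and 0.0622 to 0.131 on WT arrays; its part in the results below was not tested. In RNA from whole cultures, fewer cells of a type and less RNA per cell cannot be told apart.

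Levels are intensities divided by the 75th percentile of the array, taken over the 93 miRNAs detected on all arrays. mmu-miR-199a-3p, the arm shared with miR-199b, stood at 4.37 and 4.16 in untreated KO cells, 3.85 and 3.74 after 12 h and 3.89 and 3.39 after 24 h. In WT cells it stood at 3.89 and 3.25 untreated, 2.14 and 2.05 after 12 h and 1.93 and 1.89 after 24 h. All 4 treated WT arrays were below every other array. Its share of the summed signal of all mouse miRNAs averaged 4.07%, 2.92% and 2.86% in KO cells at 0, 12 and 24 h, and 3.20%, 1.84% and 1.71% in WT cells.

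mmu-miR-199a-5p, the arm reported to act on ATF6, stood at 1.50 and 1.26 in untreated KO cells, 0.965 and 0.879 after 12 h and 1.00 and 0.719 after 24 h. In WT cells it stood at 1.27 and 0.971 untreated, 0.591 and 0.513 after 12 h and 0.535 and 0.406 after 24 h. Again the 4 treated WT arrays were the lowest of the 12. The first KO array at 24 h lay above the second untreated WT array, so these groups overlapped.

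mmu-miR-214, processed from the second hairpin of Dnm3os, stood at 2.34 and 2.01 in untreated KO cells, 1.39 and 1.17 after 12 h and 1.37 and 1.11 after 24 h. In WT cells it stood at 1.76 and 1.41 untreated, 1.06 and 0.699 after 12 h and 0.804 and 0.760 after 24 h. In this case the treated arrays of either genotype were below all untreated arrays.

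mmu-miR-199b*, the 5p arm from the Dnm1 locus, stood at 0.547 and 0.375 in untreated KO cells, 0.316 and 0.291 after 12 h and 0.357 and 0.195 after 24 h, and at 0.458 and 0.312 in untreated WT cells, 0.233 and 0.198 after 12 h and 0.207 and 0.144 after 24 h. Its KO arrays at 24 h lay far enough apart to overlap those of every other treated group. mmu-miR-214* had summed intensities of -9.14 to 15.7, around the background, and 0 of its spots on any array were marked well above background.

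Ordered by group mean, mmu-miR-199a-5p, mmu-miR-214 and mmu-miR-199b* ran from untreated KO through untreated WT, KO at 12 h, KO at 24 h and WT at 12 h to WT at 24 h. mmu-miR-199a-3p had the same ends, but the means of both treated KO groups stood above that of untreated WT cells. Arrays of these groups overlapped, and treated KO against untreated WT cells was not tested. The neighbouring pairs of KO at 24 h and KO at 12 h, and of WT at 24 h and WT at 12 h, did not pass the test for any member. Untreated KO and untreated WT cells likewise did not pass the test for any of them.

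**Figure D2:**
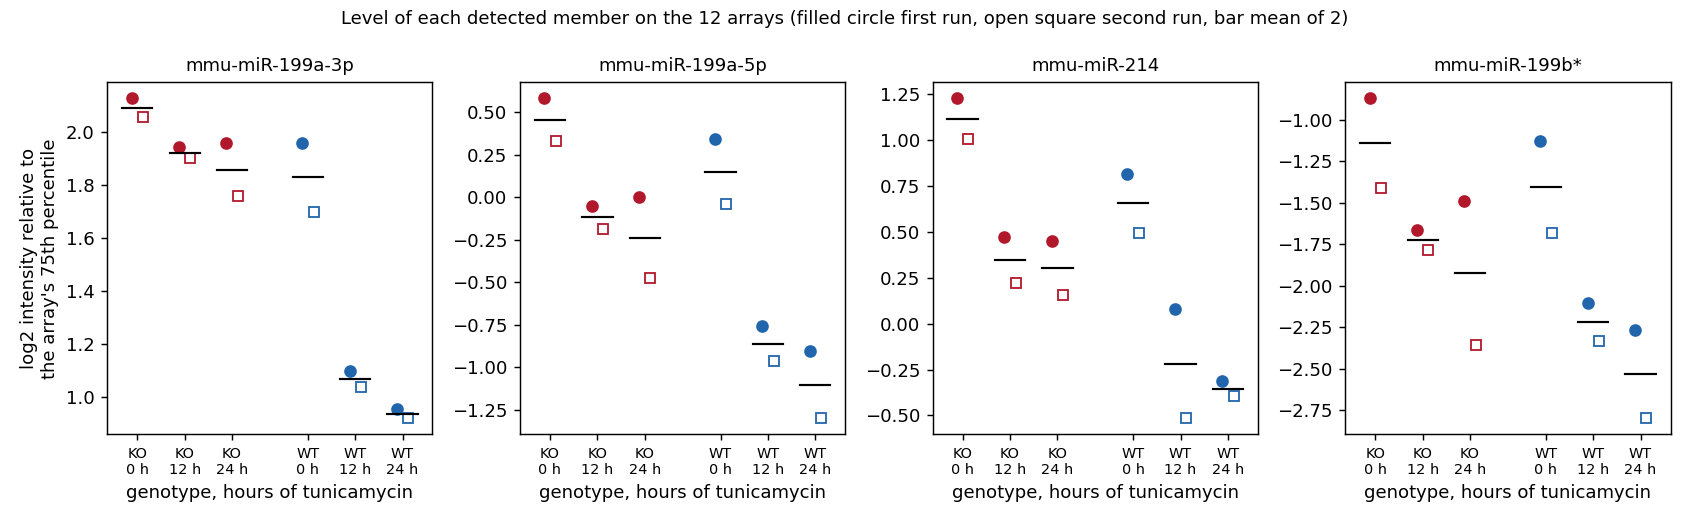
Log2 level, relative to the 75th percentile of the array, of mmu-miR-199a-3p, mmu-miR-199a-5p, mmu-miR-214 and mmu-miR-199b* on each array, KO left and WT right, by hours of tunicamycin. Points are single arrays and bars the mean of 2; for mmu-miR-199a-3p the 4 treated WT arrays, at scaled levels of 1.89 to 2.14, lie apart from the other 8.

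Between the 2 arrays of a group, the first was the higher in 24 of 24 pairs of member and group. The difference was 0.03 to 0.87 on the log2 scale, with a median of 0.25. Over all tested miRNAs and groups, the first array was the higher in 61.7% of pairs. Arrays of the second treated run include the 3 of low signal.

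In KO cells all 4 tested members were lower after 12 h of tunicamycin, and 1 of them passed the test, mmu-miR-214. Its log2 change was -0.77 ± 0.23 (SE, n = 2 per group, limma adjusted p = 0.0404), or 1.70-fold lower. The changes of mmu-miR-199a-5p (-0.57 ± 0.23, limma adjusted p = 0.114), mmu-miR-199b* (-0.58 ± 0.35, adjusted p = 0.306) and mmu-miR-199a-3p (-0.17 ± 0.13, adjusted p = 0.366) did not pass. For mmu-miR-199a-3p the 95% confidence interval ran from -0.47 to 0.13. Of all tested miRNAs 25.6% were called in this comparison and 3.98% were called lower, and the median log2 change was -0.58 over the 4 members and 0.25 over all tested miRNAs. The call for mmu-miR-214 was lost when any of 10 of the 12 arrays was left out (adjusted p up to 0.225).

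After 24 h in KO cells mmu-miR-214 was again the 1 member called, at -0.81 ± 0.23 (limma adjusted p = 0.0323), or 1.75-fold lower. mmu-miR-199a-5p changed by -0.69 ± 0.23 with an adjusted p of 0.0524, mmu-miR-199b* by -0.78 ± 0.35 (adjusted p = 0.131) and mmu-miR-199a-3p by -0.23 ± 0.13 (adjusted p = 0.229). All of the miRNAs tested gave 30.7% called and 5.11% called lower, and the median was -0.74 over the members against 0.15 over all. Leaving out either untreated KO array, or the second KO array at 24 h, ended the call for mmu-miR-214, with log2 changes of -0.70, -0.92 and -0.66 and adjusted p of 0.163, 0.059 and 0.160.

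The result in KO cells depends on the scaling. Divided by the summed signal instead, mmu-miR-199a-3p fell by 0.48 at 12 h and by 0.51 at 24 h (limma adjusted p = 0.0163 and 0.0130), and 3 and 4 members were called. This scaling moved the median of all tested miRNAs to -0.05 at 12 h, against 0.25, and to -0.08 at 24 h, against 0.15. It split the calls into 32 higher and 24 lower at 12 h, where the 75th percentile gave 38 and 7, and into 31 and 28 at 24 h, where it gave 45 and 9.

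In WT cells all 4 tested members were lower after 12 h, and 3 of them passed the test. mmu-miR-199a-5p fell by 1.01 ± 0.23 on the log2 scale (SE, n = 2 per group, limma adjusted p = 0.00978), or 2.02-fold, mmu-miR-214 by 0.87 ± 0.23 (adjusted p = 0.0191) and mmu-miR-199a-3p by 0.76 ± 0.13 (adjusted p = 0.00263). The change of mmu-miR-199b* was -0.82 ± 0.35 and did not pass (adjusted p = 0.105). Calls covered 38.1% of all tested miRNAs, and 23.9% were called lower; the median log2 change was -0.84 over the members and -0.05 over all. The call for mmu-miR-199a-3p held without any 1 array, while those for mmu-miR-199a-5p and mmu-miR-214 were lost without the first untreated WT array (adjusted p = 0.072 and 0.118) or the second WT array at 12 h (0.062 and 0.100). Without that second array the log2 change of mmu-miR-214 was -0.57.

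After 24 h all 4 tested members fell in WT cells. mmu-miR-199a-5p fell by 1.25 ± 0.23 (limma adjusted p = 0.00308), or 2.38-fold, mmu-miR-199b* by 1.13 ± 0.35 (adjusted p = 0.0315), mmu-miR-214 by 1.01 ± 0.23 (adjusted p = 0.00852) and mmu-miR-199a-3p by 0.90 ± 0.13 (adjusted p = 0.00115). The background was 43.2% called and 29.5% called lower, and the median was -1.07 over the members against -0.03 over all. Calls for mmu-miR-199a-3p and mmu-miR-199a-5p held without any 1 array. Those for mmu-miR-214 and mmu-miR-199b* were lost without the first untreated WT array (adjusted p = 0.062 and 0.176) or the second WT array at 24 h (0.0503 and 0.177), and that for mmu-miR-199b* also without either KO array at 12 h (adjusted p = 0.052).

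Time under treatment moved the members little. From 12 h to 24 h, 0 of 4 members were called in KO cells (log2 change -0.20 to -0.04) or in WT cells (-0.31 to -0.13) with limma. All tested miRNAs gave 0.568% called in KO cells and 1.14% in WT cells, and 16 and 12 of the 176 had an unadjusted p under 0.05, with 0 members among them. The widest 95% intervals, those for mmu-miR-199b*, ran from -1.12 to 0.49 in WT cells and from -1.01 to 0.61 in KO cells.

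**Figure D3:**
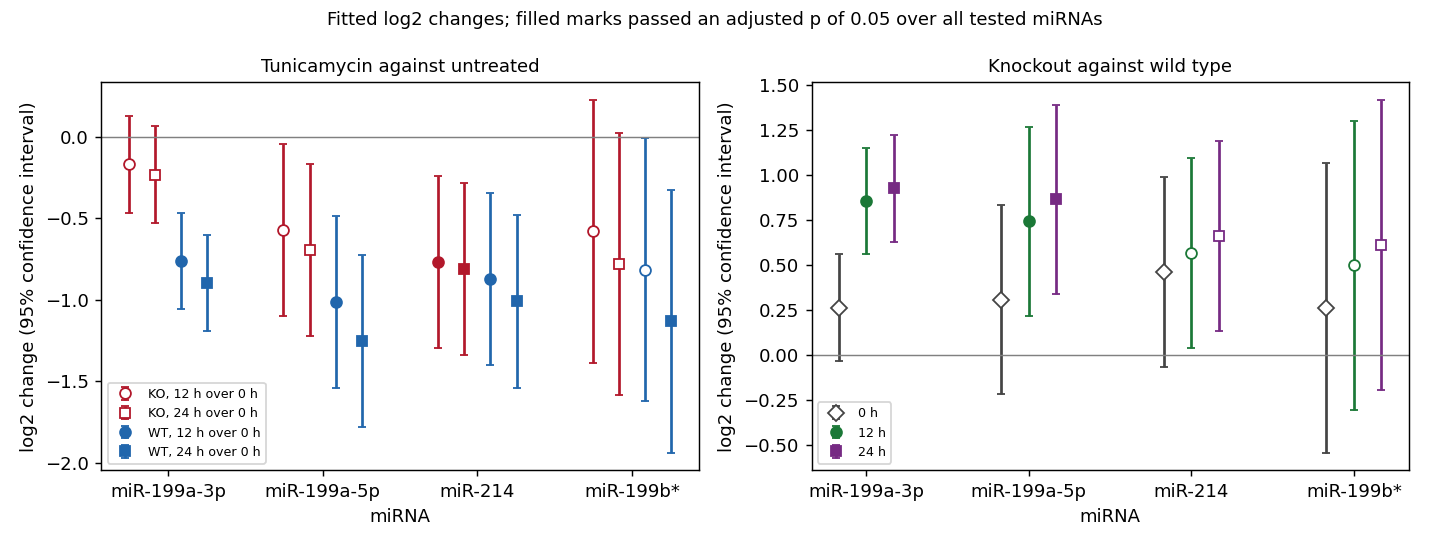
Fitted log2 change of each tested member with its 95% confidence interval: left, 12 h and 24 h of tunicamycin over untreated cells, KO left of WT; right, KO over WT at 0, 12 and 24 h. Filled marks passed an adjusted p of 0.05; all 4 members are filled for WT at 24 h, and mmu-miR-214 alone for KO.

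Without treatment 0 of 4 members differed between KO and WT cells by limma, and 0 had an unadjusted p under 0.05. The log2 differences, KO over WT, were 0.46 ± 0.23 for mmu-miR-214 (SE, adjusted p = 0.290), 0.31 ± 0.23 for mmu-miR-199a-5p (0.541), 0.26 ± 0.13 for mmu-miR-199a-3p (0.286) and 0.26 ± 0.35 for mmu-miR-199b* (0.771). The interval for mmu-miR-214 ran from -0.07 to 0.99. Of all tested miRNAs 11.4% were called.

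Under tunicamycin all 4 members were higher in KO than in WT cells at either time, and 2 of them passed the test. At 12 h mmu-miR-199a-3p was higher by 0.86 ± 0.13 on the log2 scale (limma adjusted p = 0.00154), or 1.81-fold, and mmu-miR-199a-5p by 0.74 ± 0.23 (adjusted p = 0.0331). The differences were 0.56 ± 0.23 for mmu-miR-214 (adjusted p = 0.0924) and 0.50 ± 0.35 for mmu-miR-199b* (adjusted p = 0.311). The background was 38.1% called and 29.5% called higher, with a median of 0.65 over the members and 0.23 over all tested miRNAs. mmu-miR-199a-5p lost its call without any 1 of the 4 arrays compared (adjusted p = 0.070 to 0.152), and mmu-miR-199a-3p kept it without any 1 array.

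At 24 h mmu-miR-199a-3p was higher in KO cells by 0.93 ± 0.13 (limma adjusted p = 0.00136), or 1.90-fold, and mmu-miR-199a-5p by 0.86 ± 0.23 (adjusted p = 0.0192). Differences of 0.66 ± 0.23 for mmu-miR-214 (adjusted p = 0.0584) and 0.61 ± 0.35 for mmu-miR-199b* (adjusted p = 0.221) did not pass. All tested miRNAs gave 34.7% called and 27.3% called higher, with a median of 0.76 over the members against 0.25 over all. mmu-miR-199a-5p lost its call without the first KO array or the second WT array at 24 h (adjusted p = 0.104 and 0.119).

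Each run held KO and WT arrays, so the genotype difference can be read within runs. For mmu-miR-199a-3p it was 0.85 in the first treated run and 0.87 in the second at 12 h, and 1.01 and 0.84 at 24 h. For mmu-miR-214 it was 0.39 and 0.74 at 12 h, and 0.77 and 0.55 at 24 h. The 4 members were higher in KO cells within every run at every time, untreated cells included. How many of all tested miRNAs were so was not determined, and the members follow each other across arrays. With run as a block, mmu-miR-214 passed at 12 h (adjusted p = 0.0152), and at 24 h so did mmu-miR-214 (0.00976) and mmu-miR-199b* (0.0352), so that 3 and 4 members were called. Calls rose over the whole array too. Of all 176 tested miRNAs the block gave 91 at 12 h, 62 of them higher, and 84 at 24 h, 63 of them higher. Without the block 67 and 61 were called.

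The question of the design is whether the response itself depends on ATF6b. The test compares the KO with the WT response, and these cells may also differ as lines. The difference between the responses was positive for mmu-miR-199a-3p at 12 h, 0.59 ± 0.18 (SE, limma adjusted p = 0.0479), and at 24 h, 0.66 ± 0.18 (adjusted p = 0.0372). The level of this miRNA fell less in KO than in WT cells. Of all tested miRNAs 24.4% were called at 12 h, 22.2% in this direction, and 20.5% at 24 h, 19.9% in this direction. Over the 4 members the median of this difference was 0.34 at 12 h and 0.45 at 24 h, against 0.37 and 0.44 over all tested miRNAs. A count of 1 in 4 members and these medians are close to the array as a whole.

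The other members did not pass this test. At 12 h the difference was 0.44 ± 0.32 for mmu-miR-199a-5p (limma adjusted p = 0.353), 0.24 ± 0.49 for mmu-miR-199b* (adjusted p = 0.751) and 0.10 ± 0.32 for mmu-miR-214 (adjusted p = 0.849), and at 24 h it was 0.56, 0.35 and 0.20 (adjusted p = 0.261, 0.671 and 0.731). The interval for mmu-miR-214 at 12 h, from -0.64 to 0.85, holds differences as large as that of mmu-miR-199a-3p. Leaving out 1 array ended the call for mmu-miR-199a-3p in 9 of 12 cases at 12 h and in 10 of 12 at 24 h, with adjusted p up to 0.125 and 0.111 and values of 0.46 to 0.63 and 0.53 to 0.70 in those cases. Scaled to the summed signal, its difference was 0.31 at 12 h and 0.39 at 24 h, and neither passed (adjusted p = 0.224 and 0.142).

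A ratio of 2 members on 1 array does not depend on how arrays are scaled. The log2 ratio of mmu-miR-199a-5p to mmu-miR-199a-3p averaged -2.03 ± 0.15 on the 8 treated arrays and -1.66 ± 0.09 on the 4 untreated arrays (SD). The groups did not overlap (-2.24 to -1.86 in treated cells, -1.74 to -1.55 in untreated cells), and the difference was -0.37 (two-sided exact permutation test, p = 0.00404, the smallest this design can give; adjusted p = 0.0242 over 6 ratio tests). The ratio was lower after tunicamycin in KO cells (group means -2.04 at 12 h and -2.10 at 24 h, against -1.64 untreated) and in WT cells (-1.93 and -2.04, against -1.68). The mmu-miR-199a-3p signal also holds miR-199b-3p, so this is not a ratio of the arms of 1 hairpin. The second array had the lower ratio in all 6 groups, and arrays of a run deviate together, so the 12 arrays are not fully exchangeable as the permutation assumes. With normexp background correction the difference was -0.11 and did not pass (exact permutation, adjusted p = 0.218), and treatment here too cannot be told apart from slide.

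The ratio of mmu-miR-214 to mmu-miR-199a-3p averaged -1.43 ± 0.22 on treated arrays and -1.08 ± 0.13 on untreated arrays (SD), with overlap, and did not pass after adjustment (exact permutation, p = 0.0242, adjusted p = 0.0727). By group it was -1.58 and -1.56 in KO cells at 12 h and 24 h, against -0.98 untreated, and -1.28 and -1.29 in WT cells, against -1.18 untreated. The ratio of mmu-miR-199a-5p to mmu-miR-214 was -0.60 ± 0.18 on treated and -0.58 ± 0.09 on untreated arrays (exact permutation, adjusted p = 0.881). Between KO and WT arrays the 3 ratios differed by -0.12 to 0.08, and 0 of them passed (exact permutation, adjusted p = 0.633 to 0.881).

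**Figure D4:**
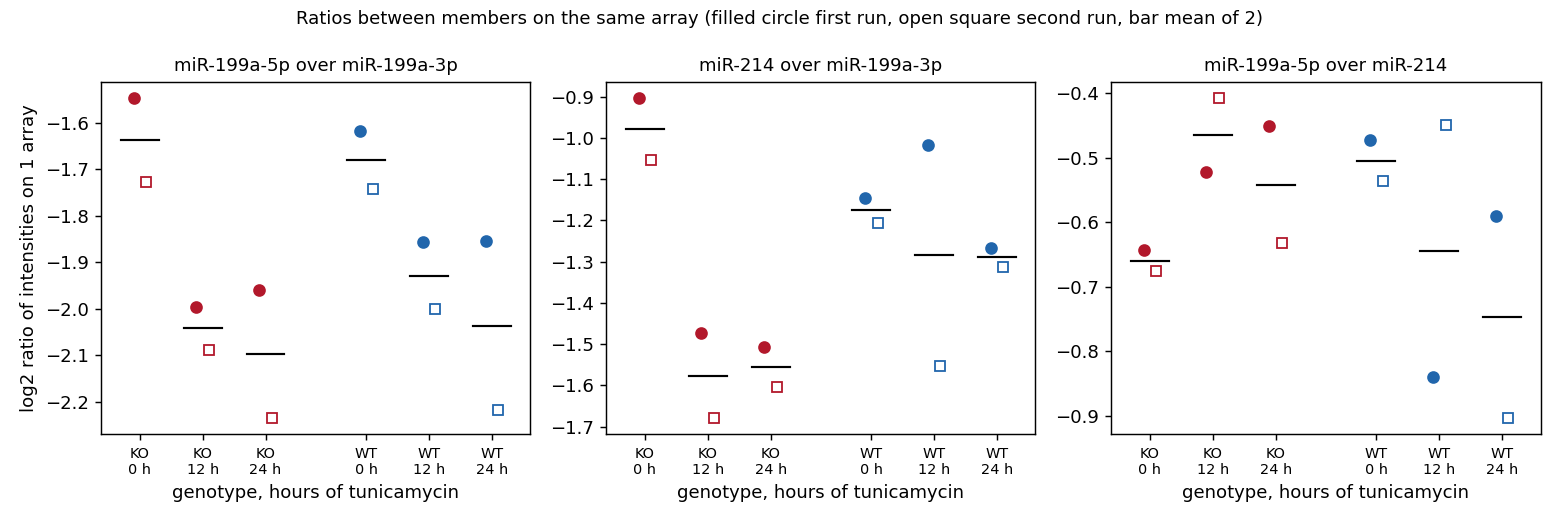
Log2 ratio of 2 members on the same array, KO left and WT right, by hours of tunicamycin; points are arrays and bars the mean of 2. For mmu-miR-199a-5p over mmu-miR-199a-3p every treated array lies below every untreated array, at most -1.86 against at least -1.74.

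Each detected member was read by 2 probes of 10 spots each. The probes agreed in the direction of all treatment changes. For mmu-miR-199a-3p they gave -0.21 and -0.15 in KO cells at 12 h and -0.87 and -0.71 in WT cells at 12 h. The 2 probes of mmu-miR-199a-5p gave -0.54 and -0.83 in KO cells and -0.98 and -1.31 in WT cells at 12 h, the larger change on the dimmer probe. That probe was well above background on 90 of 120 spots, and the dimmer probe of mmu-miR-199b* on 54 of 120, whereas both probes of mmu-miR-199a-3p were so on all 120.

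Across the 12 arrays the tested members followed each other, with a Pearson r of 0.84 to 0.97 between pairs on the log2 scale; the arrays share groups, runs and depth, so this is a description. By the same measure, the miRNAs most like the mean of the 4 members among 172 others were miR-433 (r = 0.97), miR-329 (0.97), miR-409-5p (0.95), miR-127 (0.94) and miR-379 (0.94), n = 12 arrays each. All 5 are annotated on chromosome 12, and how many of the 172 others lie on that chromosome was not determined. Having been chosen for this likeness, their own changes are given no test. miR-433 was detected on 9 arrays and miR-409-5p on 8, the other 3 on all 12. The least alike were miR-15b (r = -0.94), let-7b (-0.92) and miR-218 (-0.92), the last detected on 3 arrays.

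**Figure D5:**
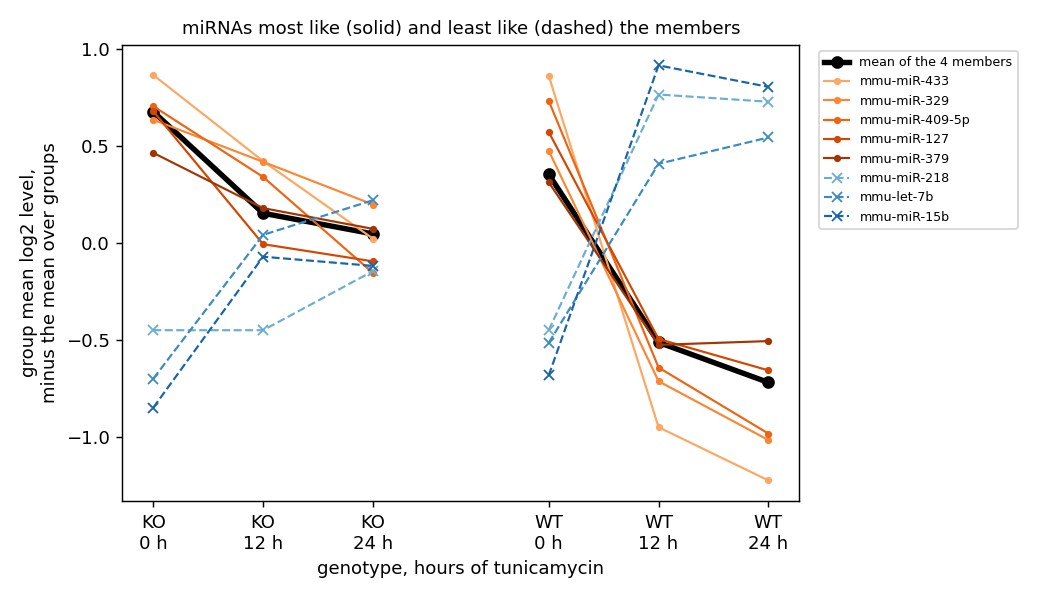
Group mean log2 level minus its mean over the 6 groups, for the mean of the 4 tested members (black), the 5 miRNAs most like it (solid, r of 0.94 to 0.97) and the 3 least like it (dashed, r of -0.94 to -0.92), KO left and WT right by hours of tunicamycin.

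Other miRNAs tied to the same pathway were taken from a list linked to ATF6, XBP1 or ER chaperones, of which 7 of 16 were tested. In KO cells 0 of 7 were called by limma at 12 h or 24 h, against 25.6% and 30.7% of all tested miRNAs. In WT cells 2 of 7 were called at 12 h and 3 of 7 at 24 h, against 38.1% and 43.2% of all: miR-322 rose by 1.62 and miR-495 fell by 0.55 at 12 h (adjusted p = 0.00483 and 0.0298). At 24 h miR-322 rose by 1.44, and miR-495 and miR-221 fell by 1.09 and 0.70. miR-495 was the 1 listed miRNA with a called response difference, 0.80 at 12 h and 1.00 at 24 h (adjusted p = 0.0369 and 0.0203), where 24.4% and 20.5% of all were called.

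The fibroblast and mesenchymal list, 21 of 23 tested, holds miRNAs abundant in the same cells as Dnm3os. In KO cells 3 rose and 0 fell at 12 h: miR-29a, miR-29c and miR-29b, the last by 0.98 and a repressor of collagen mRNAs. At 24 h 3 rose and 0 fell: miR-29b, miR-29c and miR-99a. Of all tested miRNAs 38 and 45 of 176 rose at these times. In WT cells 0 rose and 11 of 21 fell at 12 h, and likewise at 24 h, against 23.9% and 29.5% called lower among all tested miRNAs, with log2 changes of -4.10 for miR-31 (undetected after treatment, so this fitted value is no bound), -1.89 for miR-143 and -1.79 for miR-23b at 12 h. The list's median was 0.18 in KO and -0.55 in WT cells at 12 h, where all tested miRNAs had 0.25 and -0.05. Its response difference was called higher for 8 of 21 at 12 h and 7 of 21 at 24 h, against 22.2% and 19.9% of all tested miRNAs.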

How the data were processed

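Total RNA (100 ng) was labelled with Cy3 and hybridised to 12 arrays, 2 per group, per the labels' protocols. The authors deposited spot intensity on a linear scale, background-subtracted, from Agilent Feature Extraction 10.7.1.1 per the file headers and the submitters' processing notes. They also deposited log2 values, which match the log2 total gene signal of the scanner files (largest difference 1.18e-06), with no scaling between arrays.

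Unflagged spots were averaged per probe, probes summed per miRNA, divided by each array's 75th percentile over 93 miRNAs, floored at 0.0191 and put on the log2 scale. limma 3.58.1 (R 4.3.3; 6 residual and 1.65 prior degrees of freedom, Benjamini-Hochberg over 176 miRNAs, threshold 0.05) gave the 11 comparisons. It was tested on simulated data. Ratio tests used scipy 1.17.1. With 2 arrays per group, the number of arrays limits the precision.

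Same-numbered arrays share a run within a slide, per the raw file names in the labels: their deviations from group means correlated at 0.76 to 0.91 in treated and 0.48 in untreated cells, and at -0.38 to -0.05 between slides. Run was therefore a block for genotype comparisons as an alternative. Named miRNAs were all members, the 5 most and 3 least alike, listed miRNAs and those sharing a seed. The members and lists were chosen with earlier results of these data known.

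Sequences and coordinates are from RefSeq tables of GRCm38.p6. All 5 members were matched to a locus, mmu-miR-199b* only through its hairpin. Marker lists of muscle, neural and pluripotent cells had at most 1 miRNA detected per array. Since the files hold no spot means, normexp used spot medians.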

Additional observations from a re-analysis of the deposited data

Results flagged for a closer look

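The response of mmu-miR-199a-3p differed between genotypes by the test of the difference itself: KO minus WT was 0.59 on the log2 scale at 12 h (limma adjusted p = 0.0479) and 0.66 at 24 h (adjusted p = 0.0372). No run holds both treated and untreated arrays, so it has no value within a run. Both comparisons use the same untreated arrays. Over the alternatives tried, the adjusted p ran from 0.00994 to 0.972 at 12 h and from 0.00711 to 0.995 at 24 h, and 9 and 8 of 27 alternatives kept the call.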

How the results depend on the processing

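Counts of members called depend on the processing. They are given in the order KO 12 h, KO 24 h, WT 12 h, WT 24 h, each over untreated, then KO over WT at 12 h and 24 h, then the response differences at 12 h and 24 h. The values reported were 1, 1, 3, 4, 2, 2, 1 and 1. Quantile normalization gave 1, 1, 3, 3, 1, 1, 0 and 0. Scaling over all miRNAs and the deposited log2 values gave 0 throughout. With the deposited values 0 of all 176 tested miRNAs were called as well. Scaling to the summed signal gave 3, 4, 3, 4, 1, 2, 0 and 0, and normexp (chosen after seeing the data in this form) 0, 1, 3, 3, 1, 1, 0 and 0. The software's total gene signal gave 0, 0, 0, 3, 0, 0, 0 and 0. The dimmer probe alone gave 1, 3, 3, 4, 1, 1, 0 and 0, no detection filter 0, 0, 1, 3, 1, 1, 0 and 0, and miRNAs detected on all arrays 1, 2, 3, 4, 2, 3, 1 and 1. Over all 176 tested miRNAs, calls in these comparisons ran from 36 to 76 as reported. They ran from 7 to 47 with quantile normalization, 1 to 12 with scaling over all miRNAs and 19 to 79 with the summed signal. Normexp gave 3 to 21, the total gene signal 5 to 26 and the dimmer probe 33 to 76. With no detection filter 19 to 54 of 611 were called, and 20 to 48 of the 93 detected on all arrays. The brighter probe and a constant in place of the floor stayed within 1.5 times of each count reported. Without the 3 arrays of low signal (chosen after seeing the data) the counts were 0, 0, 2, 2, 1, 1, 0 and 0.

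With the replicate number as a block the counts were 3, 3, 4, 4, 3, 4, 1 and 2, and 1 member, mmu-miR-214, was called between untreated KO and WT cells. Between these untreated cells the block called 37 of all 176 tested miRNAs, against 20 as reported. In the other comparisons it called 56 to 96 of all, against 36 to 76 as reported. Run as a block gave 3, 4, 1 and 1 for the genotype and response comparisons, and run as a random block 1, 2, 3, 4, 3, 4, 1 and 1. Of all tested miRNAs run as a block called 60 to 91, against 36 to 67 as reported for the same comparisons. Run as a random block called 45 to 87 of all. Numbers pair arrays only within a slide, so the replicate block does not apply to tunicamycin against untreated cells. Leaving out 1 array gave 0 to 1, 0 to 3, 1 to 3, 2 to 4, 1 to 2, 1 to 3, 0 to 1 and 0 to 1.

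Of 1196 single values, 998 kept direction and side of the threshold, a count that includes values of results that were not called. In 126 a reported call was lost with the direction kept, and in 32 a call was gained. A further 39 values changed sign without a call on either side. The 1 called value that changed sign was the response difference of mmu-miR-199a-3p at 12 h, -0.32 with the deposited values (adjusted p = 0.972). On the arrays of the second treated run the total gene signal of mmu-miR-199b* was 2.31 to 2.86 times the sum of its probe means, against 0.639 to 0.692 on the others; the cause was not tested. Of the 6 ratio tests 1 passed, and 0 with normexp.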
